A study of Rattus norvegicus with 30 samples.

Results

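Immediate early activity genes are switched on within minutes of neuronal firing, without new protein being made first. The 10 genes described here, Fos, Fosb, Junb, Egr1, Egr2, Egr4, Arc, Npas4, Nr4a1 and Ier2, were chosen by name as genes known to respond to activity in neurons, with earlier results of these data known. All 10 were found among the 17134 genes of the deposited table of normalized counts. The rats of the study were wild type (WT), rats that express human amylin in the β-cells of the pancreas (HIP) and amylin knockout rats (AKO), with 10 males in each group and each library from a separate animal. The HIP and WT rats were Sprague Dawley rats of 15 to 16 months on normal diet, and the age of these AKO rats is not given in the sources used here. Total RNA came from tissue that the sample labels call frontal cortex, while the paper also names it hippocampus and cerebral cortex.

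Fos, Fosb and Junb code for subunits of the AP-1 transcription factor. Egr1, Egr2 and Egr4 code for zinc finger transcription factors, Npas4 for a transcription factor induced by calcium entry, and Nr4a1 for an orphan nuclear receptor. The messenger RNA of Arc moves from the nucleus to dendrites, and the Arc protein takes part in the removal of glutamate receptors from synapses. Ier2 codes for a small nuclear protein induced by growth factors and by activity. Their RNA appears and decays quickly, and such genes are used as markers of recent neuronal activity. The labels give no time of day, handling or manner of death for the rats.

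Calcium and growth factor signals reach such genes in part through DNA elements near their start. Promoters of some members are printed here from 250 bases before to 50 bases after the start in the GRCr8 genome. That genome is a later build than the rn7 genome used for the deposited table. Whether these elements bear on how the members vary between rats was not tested. A promoter was found for 8 of the 10 members, and Fos and Arc had none in the reference used. Capitals mark matches to the cyclic AMP response element (CRE, TGACGTCA), its core TGACG or the CArG box bound by serum response factor, on either strand, so that the core on the other strand reads CGTCA. Egr1 (chr18:26736828-26737127, plus strand) carries CArG boxes at -105 to -96 and at -83 to -74, and Egr2 (chr20:21054392-21054691, minus strand) carries a CArG box at -83 to -74.
Egr1: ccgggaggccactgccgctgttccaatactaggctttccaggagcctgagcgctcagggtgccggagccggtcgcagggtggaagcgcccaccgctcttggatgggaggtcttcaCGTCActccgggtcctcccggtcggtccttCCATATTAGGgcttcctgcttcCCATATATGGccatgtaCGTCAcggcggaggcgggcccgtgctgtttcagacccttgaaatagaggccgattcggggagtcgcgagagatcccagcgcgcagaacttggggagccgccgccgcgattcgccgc
Egr2: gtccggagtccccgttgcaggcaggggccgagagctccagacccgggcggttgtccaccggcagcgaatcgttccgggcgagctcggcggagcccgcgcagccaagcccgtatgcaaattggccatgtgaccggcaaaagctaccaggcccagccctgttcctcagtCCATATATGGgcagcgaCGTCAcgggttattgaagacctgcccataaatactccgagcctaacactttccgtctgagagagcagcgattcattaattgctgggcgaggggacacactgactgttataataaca
Ier2 (chr19:40399123-40399422, plus strand) is the single member of these 8 with a full CRE, at -66 to -59, and Nr4a1 (chr7:134259888-134260187, plus strand) has 4 matches to the core. Junb (chr19:40080876-40081175, plus strand) has the core alone.
Ier2: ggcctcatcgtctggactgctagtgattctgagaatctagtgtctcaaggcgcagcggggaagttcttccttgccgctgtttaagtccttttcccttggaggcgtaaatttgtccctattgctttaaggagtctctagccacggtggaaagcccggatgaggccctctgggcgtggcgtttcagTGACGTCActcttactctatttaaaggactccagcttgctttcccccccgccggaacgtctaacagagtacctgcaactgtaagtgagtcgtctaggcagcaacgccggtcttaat
Nr4a1: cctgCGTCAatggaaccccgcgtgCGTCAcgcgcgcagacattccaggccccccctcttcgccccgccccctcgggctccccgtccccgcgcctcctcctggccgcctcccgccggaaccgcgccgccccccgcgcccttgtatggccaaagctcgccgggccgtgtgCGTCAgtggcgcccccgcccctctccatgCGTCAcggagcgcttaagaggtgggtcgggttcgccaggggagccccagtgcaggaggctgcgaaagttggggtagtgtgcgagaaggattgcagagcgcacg
Junb: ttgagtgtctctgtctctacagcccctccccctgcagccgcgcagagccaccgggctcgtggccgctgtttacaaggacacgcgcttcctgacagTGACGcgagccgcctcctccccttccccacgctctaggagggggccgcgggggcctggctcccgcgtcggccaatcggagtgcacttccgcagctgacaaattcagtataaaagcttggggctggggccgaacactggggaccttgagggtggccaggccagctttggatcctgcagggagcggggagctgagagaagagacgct
The core was present in 6 of the 8 member promoters (Junb, Egr1, Egr2, Egr4, Nr4a1 and Ier2), against 21.2% of 33469 promoters, and the full CRE was present in 1.83% of them. The CArG box was present in 1.64% of promoters. The AP-1 site TGACTCA, in 4.63% of promoters, and the EGR site GCGTGGGCG, in 0.544%, were in 0 member promoters. Sites outside these stretches are not counted, and the placing of each start in the reference was not checked. Member promoters held from 47.7% G and C (Fosb) to 72.3% (Nr4a1), against a median of 51.7% for all promoters.

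Depth is given as the sums of deposited values, which normalization makes alike, and as estimated reads. Summed normalized counts per library, given in M (mega), ran from 15.45 to 17.59 M in WT (median 16.98 M), from 15.68 to 17.2 M in HIP (median 16.81 M) and from 15.81 to 17.98 M in AKO (median 16.86 M). Reads before normalization, estimated from the spacing of the values, were 12.92 to 21.15 M in WT, 13.69 to 16.67 M in HIP and 12.9 to 23.62 M in AKO. The median estimate was 19.12 M in WT, 15.65 M in HIP and 16.09 M in AKO, so WT libraries were in the main deeper. Deposited values are not divided by transcript length, and levels are therefore not compared between genes.

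Marker genes set 2 libraries apart from those of the other rats. WT rat 10RT43 had 17979 normalized counts of Gabra6, a receptor subunit of cerebellar granule cells. Tbr1, a transcription factor of cortical projection neurons, was 16.7 in 10RT43 and between 1433 and 3190 elsewhere. HIP rat 10RT46 had 19081 normalized counts of Tph1, 1166 of Asmt and 192 of Aanat, which serve melatonin synthesis in the pineal gland, while Tph1 was between 0 and 22.7 in other rats. It also had 14881 of Ttr, a choroid plexus gene, with Tbr1 at 1708, within the range of the other rats, and the cortical gene Cux2 at 732, below the 1231 to 2663 of the 26 rats without such markers. A smaller signal of the same kinds was present in HIP rat 12RT23 (Gabra6 1564) and AKO rat 7AKO19 (Ttr 3445), and Gabra6 was between 1.12 and 16.5 in the other 26 rats. The mean log2 level of 7 cortical markers was 7.32 in 10RT43, with Slc17a7 at 12337 and Fezf2 at 0, and between 10.72 and 11.62 in the other rats. The level of the 6 cerebellar markers was 13.14 in 10RT43 and 10.23 in 12RT23, and at most 5.71 elsewhere. The level of the 5 pineal markers was 10.28 in 10RT46 and at most 2.42 elsewhere, and that of the 6 choroid plexus markers was 8.96 in 10RT46 and 7.46 in 7AKO19 and at most 4.94 elsewhere. The mean level of the cortical markers was thus lower in 10RT43 than in any other library. That of 5 hippocampus genes was 8.35 in 10RT46, 4.88 in 10RT43 and between 5.89 and 7.47 in the other rats. Which of the names given for the tissue holds was not tested. Genes of olfactory bulb and striatum differed among those 26 rats as well, with Eomes between 1.64 and 523 and Adora2a between 55.2 and 1361. Tissue that is a mixture cannot tell fewer cells of a type from less RNA in each cell, which holds for every value here. Tests between groups, the spread, summaries of the correlations and slopes on Fos and Arc are given with all rats and again without 10RT43 and 10RT46. Group medians, most ranges and the order of the rats are given with all rats only. Slopes on estimated reads and library number were fitted with all rats only.

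The AP-1 members varied widely from rat to rat in every group, and the ranges of the groups overlapped. Fos had 179 to 2377 normalized counts in WT (median 732), 515 to 1151 in HIP (median 847) and 288 to 1417 in AKO (median 1024). Its lowest and highest values were both from WT rats, 10RT55 and 10RT57. Fosb, a close relative of Fos with a longer-lived spliced product, had 38.3 to 1117 in WT (median 448), 218 to 1040 in HIP (median 453) and 249.1 to 1051 in AKO (median 647). The lowest WT value was from 10RT43, and the next was 247. Junb, a partner of both, had 182 to 2661 in WT (median 958), 666 to 1376 in HIP (median 1040) and 514 to 1935 in AKO (median 1273), again with 10RT43 lowest and 10RT57 highest. Without 10RT43 the lowest Junb value in WT was 549.9.

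The Egr genes, whose proteins bind a shared GC-rich site, had wide ranges as well. Egr1 had 872 to 10580 normalized counts in WT (median 7081), 3613 to 9179 in HIP (median 5973) and 2559 to 8791 in AKO (median 7180). Egr2 had 2.39 to 808 in WT (median 383), 140.6 to 588 in HIP (median 379) and 135.8 to 845 in AKO (median 324). Egr4 had 103 to 1535 in WT (median 659), 278 to 1022 in HIP (median 627) and 446 to 1257 in AKO (median 872). In WT all 3 Egr genes were lowest in 10RT43 and highest in 10RT57. Without 10RT43 the lowest values in WT were 2849 for Egr1, 68.4 for Egr2 and 338.7 for Egr4. In AKO, rat 4KAH27 was lowest for all 3.

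Arc, the only member here that acts at the synapse and not in the nucleus alone, had 507 to 11323 normalized counts in WT (median 6071), 3617 to 10927 in HIP (median 4862) and 1136 to 11772 in AKO (median 6666). Its value in 10RT43 was 507 and the next in WT was 1424. Npas4, which is expressed in neurons in the main, had 19.1 to 1370 in WT (median 256), 146.7 to 659 in HIP (median 277) and 65.3 to 820 in AKO (median 650). The AKO median of Npas4 lay above the WT and HIP medians, yet the AKO range reached below the HIP range. Nr4a1, which regulates metabolic and mitochondrial genes, had 452 to 6994 in WT (median 2465), 1507 to 4189 in HIP (median 2398) and 1191 to 3727 in AKO (median 3086). Ier2, which is also induced outside neurons, had 183 to 933 in WT (median 276), 167 to 360 in HIP (median 254) and 139.4 to 655 in AKO (median 320). Without 10RT43 the lowest values in WT were 152.6 for Npas4 and 711.3 for Nr4a1. Every member had overlapping ranges in the 3 groups.

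**Figure D1:**
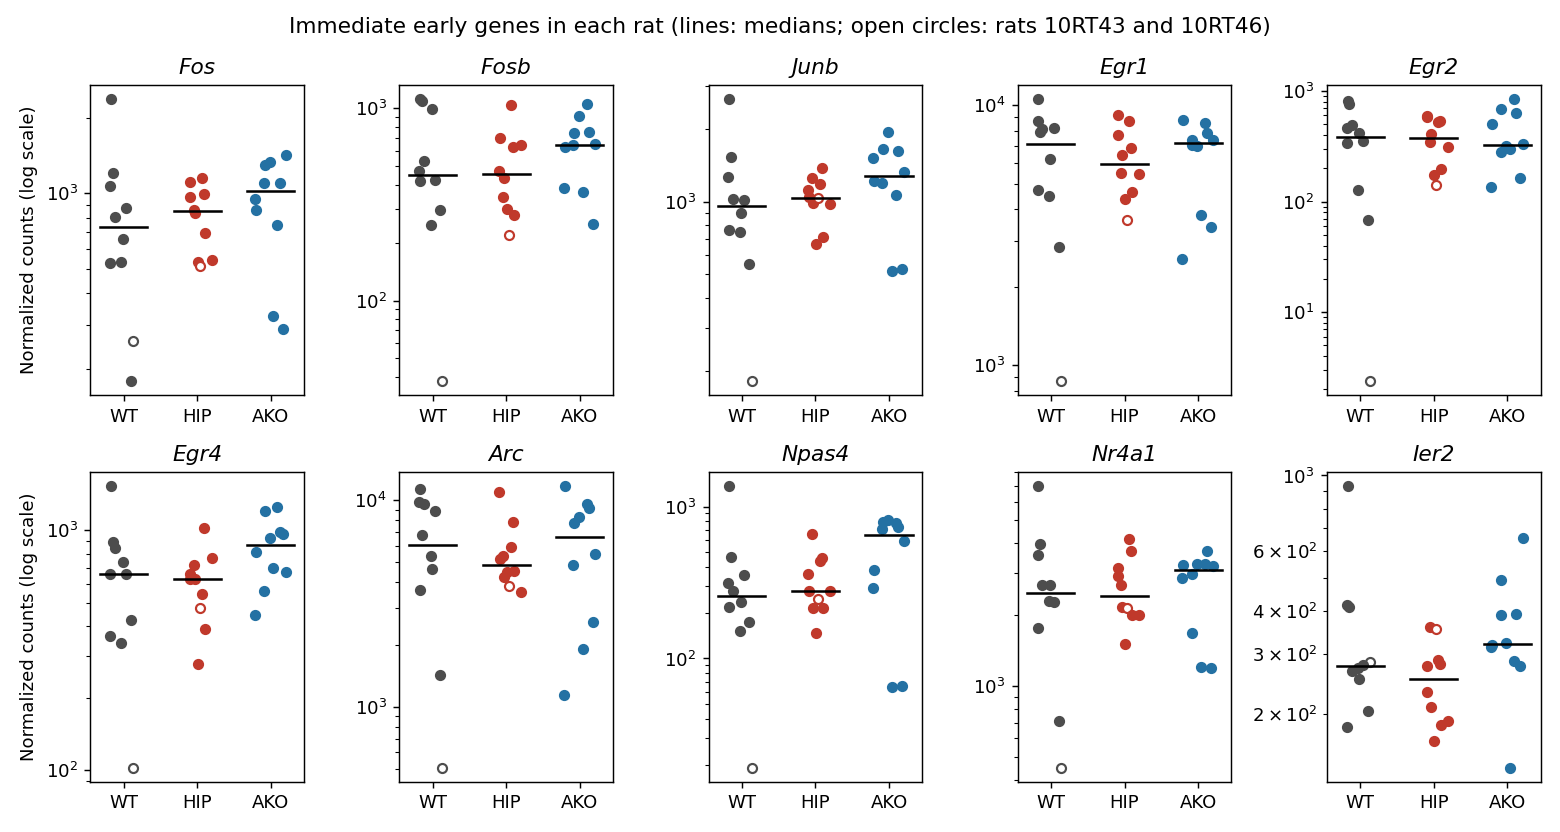
Normalized counts of the 10 genes on log axes, 1 dot per rat, for WT, HIP and AKO rats, with group medians as lines and 10RT43 and 10RT46 as open circles. The groups overlap for each gene, and Egr2 runs from 2.39 in 10RT43 to 845 in AKO rat 7AKO42.

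The same few rats were low or high for most members. By the mean log2 value of the 10 genes, WT rat 10RT43 was lowest (6.93) and was the lowest of all rats in 8 members, followed by WT rat 10RT55 (8.62), AKO rats 6KAH99 (8.97) and 6KAH98 (8.99) and HIP rat 10RT41 (9.16). WT rat 10RT57 was highest (11.29), was highest of all rats in 8 members and lay above the median in all 10. It was followed by AKO rats 6AKO52 and 7AKO28 (10.57 each), WT rat 10RT51 (10.55) and AKO rat 7AKO42 (10.54). The rats at each end came from more than 1 group. Among AKO rats the 3 lowest (6KAH99, 6KAH98 and 4KAH27 at 9.44) have KAH in their labels, the other KAH rat, 4KAH35, was at 10.34, and the 6 with AKO in their labels were between 10.12 and 10.57. What these labels stand for is not given, the difference was not tested, and ranges and correlations take the AKO rats as 1 group. The highest value in WT was from 5.10 times the lowest (Ier2) to 337.6 times (Egr2), in HIP from 2.07 times (Junb) to 4.77 times (Fosb) and in AKO from 2.82 times (Egr4) to 12.6 times (Npas4). Without 10RT43 the range in WT was from 3.71 times (Egr1) to 13.3 times (Fos), with 11.8 times for Egr2. For Fosb the range was 4.22 times in AKO and 4.77 times in HIP (3.73 times without 10RT46), and for Egr4 it was 2.82 times in AKO and 3.68 times in HIP with and without 10RT46. Spread was not tested between groups.

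**Figure D2:**
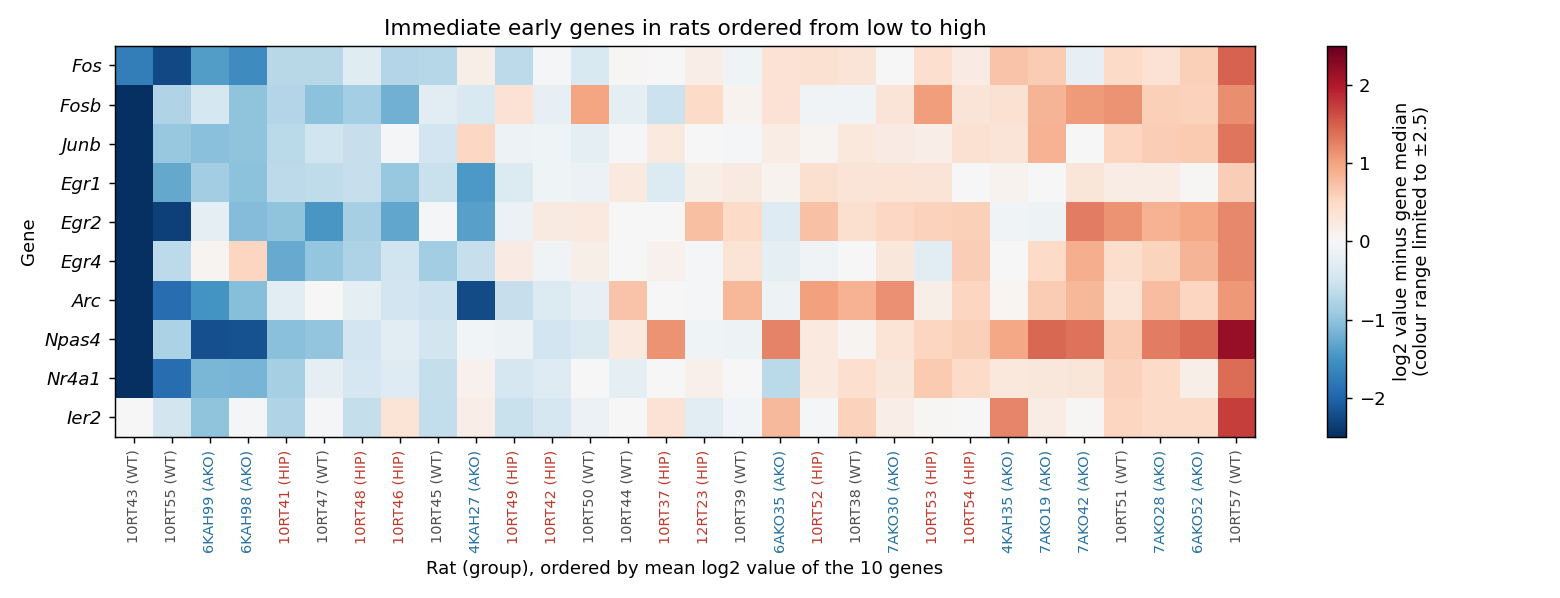
Heat map of log2 values minus the median of each gene, genes down and rats across, with rats ordered by the mean of the 10 genes and coloured by group. Columns are of nearly 1 colour at both ends, from 10RT43 (mean 6.93) to 10RT57 (mean 11.29).

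The members spread more from rat to rat than most genes. Their standard deviation within groups on the log2 scale was 0.56 (Ier2) to 1.52 (Egr2), against a median of 0.30 for 15526 genes with a mean of at least 10. These values placed Ier2 at percentile 81.5 of those genes, Junb at 89.8, Egr4 at 90.3, Egr1 at 91.1, Nr4a1 at 92.4, Fos at 92.8, Fosb at 95.5, Arc at 96.5, Npas4 at 97.9 and Egr2 at 98.9. Without 10RT43 and 10RT46 the members lay between percentile 87.3 (Egr1) and 98.2 (Npas4), and the median of all genes was 0.26. The wide spread of the members was thus present with and without those rats.

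Differences between groups were tested with limma on log2 of the normalized count plus 1, a scale that understates differences of genes with low counts. Between HIP and WT, 0 of the 10 members were called at unadjusted p under 0.05, where 439 of 17085 genes (2.57%) were, 190 of them higher in HIP and the rest lower. At adjusted p under 0.05 there were 0 members and 0 genes (0%). Fos was 0.23 higher in HIP on the log2 scale (95% interval -0.48 to 0.94, p = 0.507), and Arc was 0.20 higher (interval -0.72 to 1.12, p = 0.654). Egr2 had the largest difference, 0.66 (interval -0.85 to 2.18, p = 0.373), and Ier2 was the only member lower in HIP, by -0.34 (interval -0.82 to 0.14, p = 0.151). The others were between 0.10 (Egr4, p = 0.778) and 0.35 (Npas4, p = 0.480), with Fosb 0.13, Junb 0.20, Egr1 0.19 and Nr4a1 0.23 among them. The adjusted p was 0.999 for all members. The intervals are wide enough to hold a difference of either sign for each of them.

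The sign of the HIP and WT differences changed with the rats and covariates used. With all rats 9 of 10 members were higher in HIP, with a median log2 fold change of 0.20 (0.00 for all genes), and without WT rat 10RT43 it was 1 of 10, with a median of -0.07. Without both 10RT43 and 10RT46 it was 3 of 10, with a median of -0.03, and 817 of 16999 genes (4.81%) were called at unadjusted p under 0.05. In that setting Fos was 0.15, Fosb -0.13, Junb -0.06, Egr1 -0.01, Egr2 0.14, Egr4 -0.13, Arc -0.10, Npas4 -0.01 and Nr4a1 0.01. Ier2 had the lowest p of the members, at 0.0964 for a difference of -0.42. In these fits without covariates 0 members passed a threshold in either direction. With marker list levels as covariates 0 of 10 members were higher in HIP (median -0.22). With estimated reads as a covariate 9 of 10 were, with all rats (median 1.03) and without 10RT43 and 10RT46 (median 0.39). With estimated reads and all rats 8 members had unadjusted p under 0.05, among 4104 of 17085 genes, and Egr2 had adjusted p under 0.05, among 739 genes. With estimated reads and without 10RT43 and 10RT46 0 members and 277 of 16999 genes had unadjusted p under 0.05.

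Between AKO and WT, 0 of 10 members were called by limma at unadjusted p under 0.05, against 1594 of 17058 genes (9.34%), of which 892 were higher and 702 lower in AKO. At adjusted p under 0.05 there were 0 members and 17 genes (0.0997%). Egr4, of the same family as Egr1, had the lowest p of the members, with 0.60 (95% interval -0.11 to 1.31, p = 0.0947, adjusted p = 0.585). Egr2 was 0.74 (p = 0.322), Npas4 0.71 (p = 0.259), Fosb 0.50 (p = 0.282), Junb 0.40 (p = 0.271) and Fos 0.32 (p = 0.429). The smallest differences were those of Nr4a1 (0.20, p = 0.600), Egr1 (0.17, p = 0.643), Arc (0.12, p = 0.818) and Ier2 (0.10, p = 0.707). All 10 estimates were above 0, with a median of 0.36, and without WT rat 10RT43 7 of 10 were, with a median of 0.10. Without 10RT43 and 10RT46 Egr4 was 0.33 (p = 0.192), Egr2 0.08, Npas4 0.31, Fosb 0.12, Junb 0.15, Fos 0.17, Ier2 0.08, Nr4a1 -0.04, Egr1 -0.12 and Arc -0.23. In that setting 1746 of 17025 genes (10.3%) were called at unadjusted p under 0.05 and 21 at adjusted p under 0.05. Leaving out WT rat 10RT57 instead brought Egr4 to 0.76 (p = 0.0268, adjusted p = 0.402), the only case in which a member passed the unadjusted threshold with 1 rat removed.

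Between HIP and AKO, 2 of 10 members were lower in HIP at unadjusted p under 0.05, Egr4 and Ier2, against 2179 of 17092 genes (12.7%), of which 1000 were higher and 1179 lower in HIP. At adjusted p under 0.05 there were 0 members and 29 genes (0.17%). Egr4 was -0.50 (95% interval -0.92 to -0.07, p = 0.0248, adjusted p = 0.324), and Ier2 was -0.44 (interval -0.87 to -0.02, p = 0.0426, adjusted p = 0.374). Both calls are at the unadjusted threshold, and 0 members were called with all 30 rats in 1 fit or with estimated reads as a covariate. The other members were not called, with Fosb -0.37 (p = 0.188), Npas4 -0.36 (p = 0.429), Junb -0.20 (p = 0.360), Fos -0.09 (p = 0.747), Egr2 -0.08, Egr1 0.02, Nr4a1 0.03 and Arc 0.08. Without 10RT43 and 10RT46 Egr4 was -0.47 (p = 0.0412, adjusted p = 0.262) and Ier2 -0.50 (p = 0.0253, adjusted p = 0.220). The others were then Fosb -0.25, Npas4 -0.33, Junb -0.20, Fos -0.02, Egr2 0.06, Egr1 0.10, Nr4a1 0.06 and Arc 0.13. Egr2 thus changed sign. In that setting 3005 of 17040 genes (17.6%) were called at unadjusted p under 0.05 and 70 at adjusted p under 0.05. HIP and AKO were each compared with the same WT rats, so the comparisons are not independent and are set side by side here.

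Neither call between HIP and AKO held without each single rat. Egr4 was -0.38 (p = 0.0552) without HIP rat 10RT41 and -0.43 (p = 0.0516) without AKO rat 7AKO42. Ier2 lost its call without any 1 of 10 rats, among them HIP rats 10RT41 (p = 0.0826), 10RT42 (p = 0.0661), 10RT48 (p = 0.0745), 10RT49 (p = 0.0729) and 12RT23 (p = 0.0580). The AKO rats among them were 4KAH35 (p = 0.0945), 6AKO35 (p = 0.0816), 6AKO52 (p = 0.0659), 7AKO19 (p = 0.0507) and 7AKO28 (p = 0.0664). Its estimate lay between -0.58, without 6KAH99, and -0.33, without 4KAH35, and thus kept its sign in each case.

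**Figure D3:**
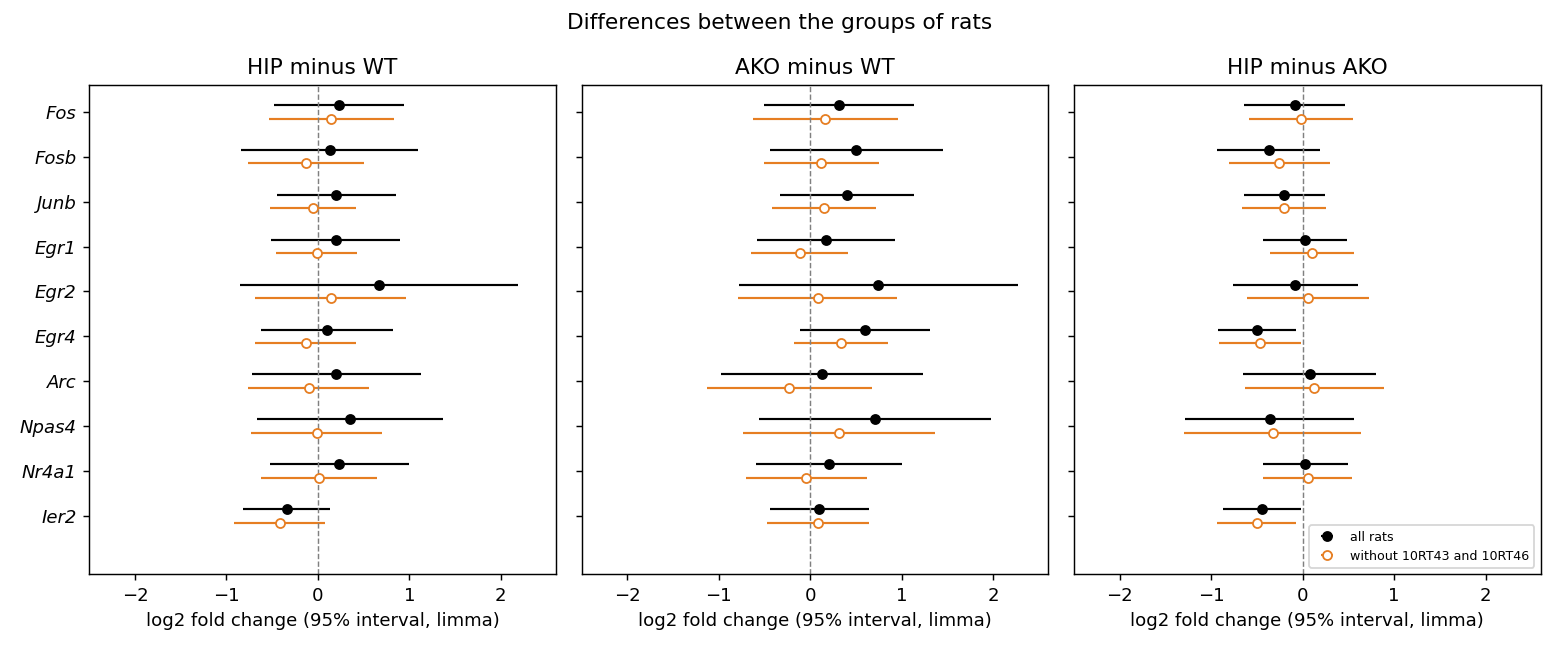
Log2 fold changes of the 10 genes with 95% intervals for HIP minus WT, AKO minus WT and HIP minus AKO, with all rats (filled) and without 10RT43 and 10RT46 (open). Intervals cross 0 except those of Egr4 (-0.50) and Ier2 (-0.44) for HIP minus AKO.

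Members rose and fell together from rat to rat inside the groups. Pearson r of log2 values after subtraction of group means was computed for 45 pairs, with 30 rats in each, and p was taken from permutations within groups. All 45 were positive, with a median r of 0.788 and a median rho of 0.695, and 40 were above 0.5. The number called at unadjusted p under 0.05 was 40, all of them also at p adjusted over the 45 pairs, and 15 pairs had the smallest possible p of 1e-05. For rho the number was 42. Pairs of other genes were not tested, so how far these counts exceed those of other genes cannot be told. Egr1 and Arc had the highest r, 0.937 (rho 0.892, p = 1e-05, the smallest possible, adjusted p = 3e-05, and r 0.882 without the 2 farthest rats). Others at the top were Egr1 with Egr2 (0.934), Junb with Npas4 (0.927), Junb with Nr4a1 (0.919) and Fosb with Egr2 (0.907), pairs that join members of separate protein families as well as members of 1 family.

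Ier2 had the lowest median r with the other members when all rats were used. Its r was lowest with Egr2 (0.263, p = 0.214) and was not called with Fosb (0.315, p = 0.143), Egr4 (0.371, p = 0.0853), Egr1 (0.406, p = 0.0672) or Arc (0.422, p = 0.0518). Its median r was 0.422, and it was 0.597 without 10RT43 and 10RT46, when Egr4 was lowest with 0.562. In 10RT43, the lowest rat for 8 members, Ier2 was not lowest. Over all pairs the median r was 0.683 without the 2 farthest rats of each pair and 0.707 without 10RT43 and 10RT46. In that last setting r ran from 0.45 (Egr2 with Ier2) to 0.922 (Fos with Junb), and 41 pairs were above 0.5. Of 13702 genes compared with the mean of the members, 1319 had r above 0.5 with it when all rats were used. Without 10RT43 and 10RT46 it was 119 genes, so many genes varied with the members through those rats.

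The co-variation was present in each group. The median r over the 45 pairs was 0.898 in WT (0.829 without 10RT43), 0.643 in HIP (0.690 without 10RT46) and 0.627 in AKO. Pairs with negative r were Fosb with Ier2 in HIP (-0.00808) and Egr4 with Ier2 (-0.0951) and Fos with Egr4 (-0.0446) in AKO. Egr4 was thus the member least tied to the rest in AKO, with a median r of 0.236 there. Over all rats Egr2 and Nr4a1 had the highest median r with the other members, 0.825 each. Without 10RT43 and 10RT46 Fos was highest with 0.769, while Egr2 had 0.751 and Nr4a1 0.750.

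**Figure D4:**
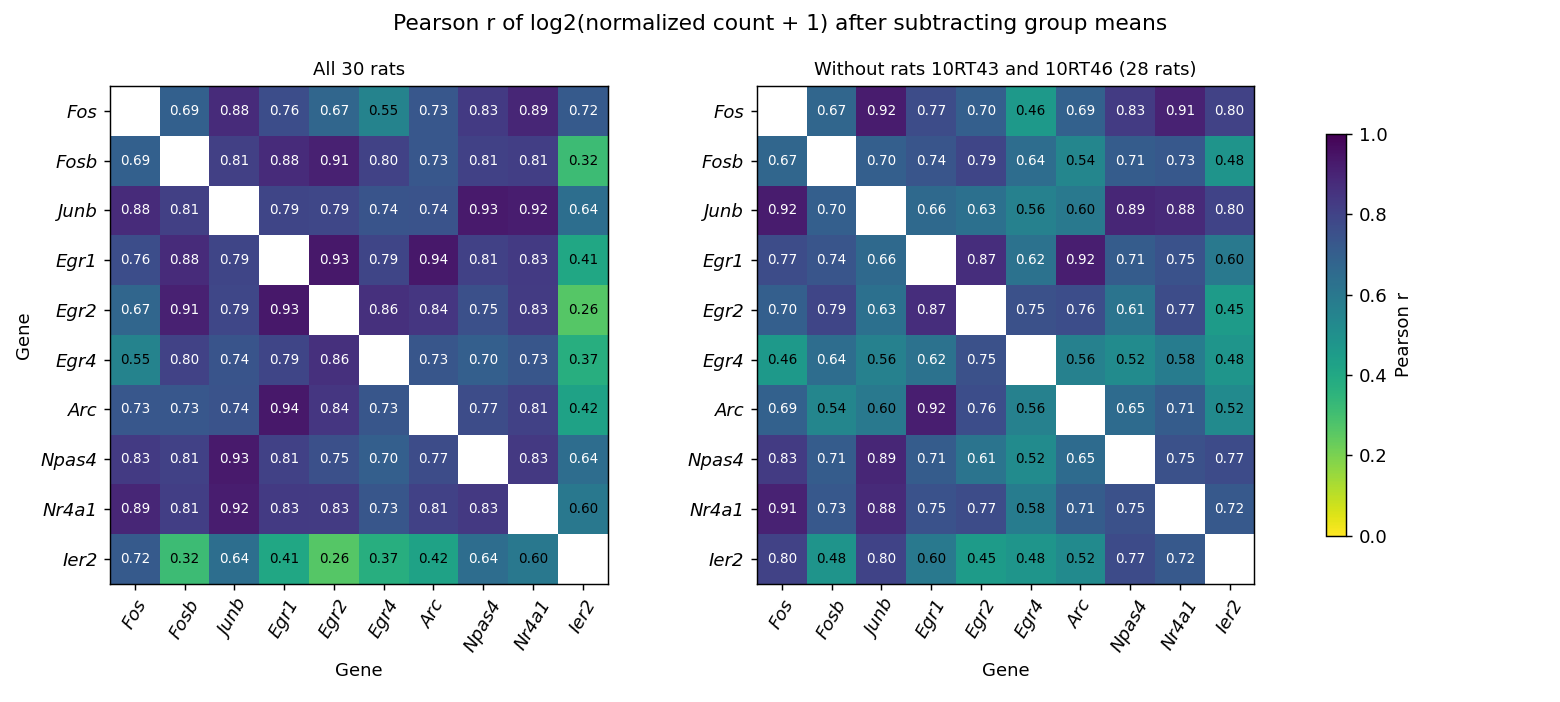
Pearson r for the 45 pairs of members after subtraction of group means, with all 30 rats and without 10RT43 and 10RT46, genes on both axes and colour for r. With all rats r runs from 0.263 (Egr2 with Ier2) to 0.937 (Egr1 with Arc).

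Fos, the member most used as an activity marker, was then taken as the gene to follow across all 30 rats, with group in the model and every other gene tested by limma. At adjusted p under 0.05 there were 20 genes (0.117%), all with positive slopes, and 8 of the 9 other members were among them. At unadjusted p under 0.05 it was all 9 members, against 1436 of 17102 genes (8.4%), 895 positive and 541 negative. Nr4a1 had the lowest p of all genes (slope 0.88, adjusted p = 1.4e-07), and Junb had a slope of 0.77 (adjusted p = 7.1e-07). Npas4 had the steepest slope of the members, 1.28 (adjusted p = 2.1e-05). Then came Egr1 (0.71, adjusted p = 0.00111), Arc (0.97, adjusted p = 0.00385), Ier2 (0.49, adjusted p = 0.00788), Fosb (0.83, adjusted p = 0.0158) and Egr2 (1.24, adjusted p = 0.0306). Egr4 was the exception, with a slope of 0.50 (p = 0.00116, adjusted p = 0.495). The median slope was 0.83 for members and 0.01 for all genes.

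The link with Fos was fitted again without the libraries that stood apart, and 7 members were called at adjusted p under 0.05 without 10RT43, 10RT46, 12RT23 and 7AKO19 (Fosb not, adjusted p = 0.114), among 21 genes. Without 10RT43 and 10RT46 the same 8 members were called at adjusted p under 0.05 among 24 genes, while 678 of 17032 genes passed the unadjusted threshold. Junb then had the lowest adjusted p (slope 0.68, 1.9e-08), followed by Nr4a1 (0.79, 6.8e-08), Npas4 (1.12, 6e-05), Ier2 (0.58, 0.000366), Egr1 (0.54, 0.00137), Egr2 (0.80, 0.0197), Arc (0.79, 0.0205) and Fosb (0.59, 0.0413). Egr4 had 0.34 (p = 0.0112, adjusted p = 0.937). In pairs, Fos had r 0.894 with Nr4a1 (rho 0.794), 0.875 with Junb (rho 0.887) and 0.555 with Egr4 (rho 0.470, p = 0.00749).

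Calls at the weaker end of the Fos link changed when 1 rat was left out. Ier2 was no longer called without WT rat 10RT57 (slope 0.39, adjusted p = 0.164). Fosb lost its call without 10RT57 (adjusted p = 0.0728) and without AKO rat 6KAH98 (adjusted p = 0.0570). Egr2 lost its call without 10RT38 (adjusted p = 0.0545), 10RT51 (adjusted p = 0.0631), 10RT55 (adjusted p = 0.0560), 10RT57 (adjusted p = 0.0967) or 10RT46 (adjusted p = 0.0552). The number of all genes called at unadjusted p moved too, to 766 without 10RT43, 2348 without 10RT55, 2509 without 10RT57 and 2344 without 6KAH99. Nr4a1, Junb, Npas4, Egr1 and Arc kept their calls in every case.

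**Figure D5:**
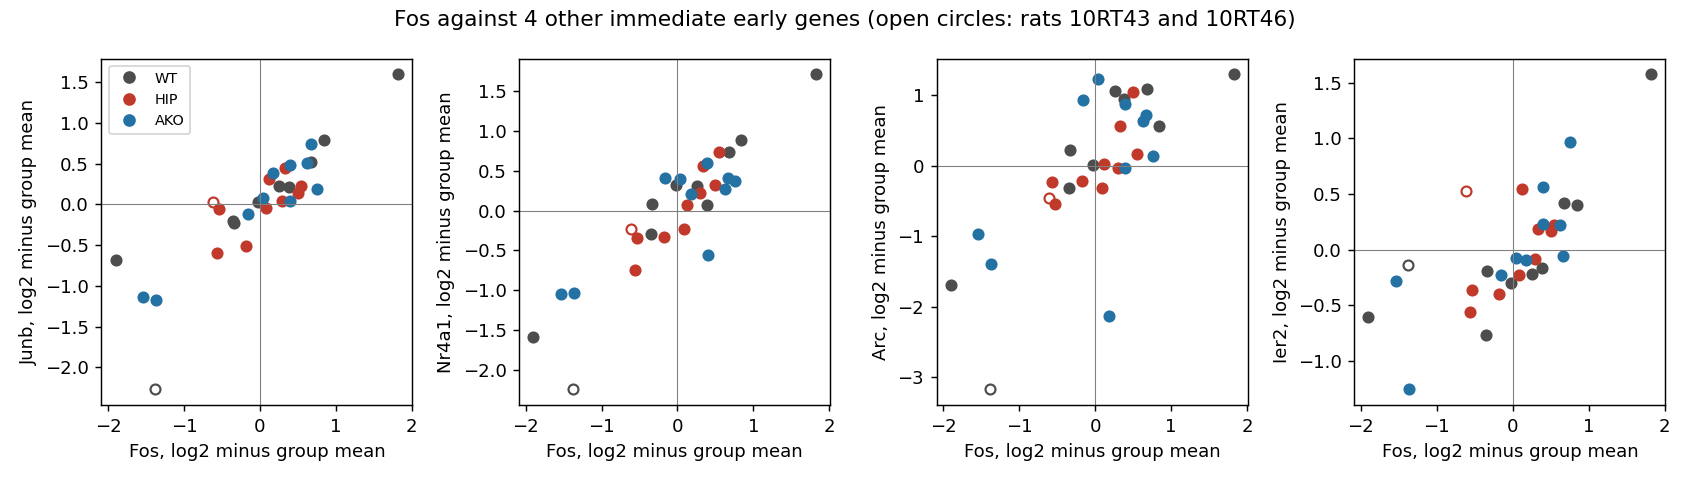
Fos against Junb, Nr4a1, Arc and Ier2, log2 values minus the group mean, 1 dot per rat coloured by group. Nr4a1 (r 0.894) and Junb (r 0.875) follow Fos across rats of all groups.

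Arc was also taken as the gene to follow, a choice made after seeing the data. With all rats 9 of 9 other members were called at unadjusted p under 0.05 and 8 at adjusted p under 0.05, but so were 4428 genes and 1824 genes (10.7%). Ier2 was the member not called at adjusted p (slope 0.22, adjusted p = 0.106). Leaving out 10RT43 and 10RT46 gave again 9 of 9 members at unadjusted p, among 1744 genes, and 4 of 9 at adjusted p, among 10 genes (0.0587%). These 4 were Egr1 (0.56, adjusted p = 4.7e-08), Egr2 (0.77, adjusted p = 0.00511), Nr4a1 (0.54, adjusted p = 0.0272) and Fos (0.60, adjusted p = 0.0409). The large number of genes linked with Arc thus depended on those 2 libraries, while Egr1 followed Arc in both settings.

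Most of the other 12 genes called with Fos code for proteins also made early after a stimulus. They were Sik1 (slope 0.69, adjusted p = 1.4e-07), Trib1 (0.40, adjusted p = 5.4e-05), Btg2 (0.79, adjusted p = 0.000411), Klf4 (0.59, adjusted p = 0.00138), Ccn1 (1.39, adjusted p = 0.00199), Apold1 (0.98, adjusted p = 0.00253), Dusp6 (0.42, adjusted p = 0.0201), Atf3 (1.35, adjusted p = 0.0306), Rbm24 (0.31, adjusted p = 0.0368), F2rl1 (0.59, adjusted p = 0.0377) and the unnamed genes ENSRNOG00000065682 and ENSRNOG00000069024. Of 18 other immediate early genes for transcription factors and nuclear co-regulators 10 were called with Fos at unadjusted p under 0.05, all positive, and 3 of them at adjusted p (Atf3, Klf4 and Btg2). The rest of the 10 were Jun (0.23), Fosl2 (0.48), Egr3 (0.82), Nr4a3 (0.38), Klf2 (0.57), Csrnp1 (0.42) and Srf (0.14). Of 27 other early or activity-induced effector genes 13 were called, all positive, with Ptgs2, Dusp14, Gadd45g, Zfp36, Arl4d, Ccn2, Tiparp and Per1 beside the 5 at adjusted p (Dusp6, Sik1, Trib1, Ccn1 and Apold1). Of 21 genes of the upstream calcium, cyclic AMP and serum response pathways 3 were called (Mrtfa, Mrtfb and Camk2a). It was 1 of 9 for glucocorticoid-induced genes (Plin4) and 1 of 5 for heat shock genes (Hspb1). Of all genes 8.4% were called, and differences between the lists were not tested. When 10RT43 and 10RT46 were left out, 3.98% of all genes were called, and it was 9 of 18 transcription factors and co-regulators, all positive (4 at adjusted p, with Jun added, and without Egr3). Of the 27 effectors 11 were then positive and 1 negative (Nrn1, -0.14), with Tiparp added to the 5 at adjusted p. Of the upstream genes Ep300 alone was called (0.13), of the heat shock genes Hspb1, and of the glucocorticoid-induced genes 0.

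The same lists were counted in the comparisons of groups. Between HIP and WT, where 2.57% of all genes were called, 0 of their genes were called with all rats, and without 10RT43 and 10RT46 it was Ier5l (-0.31) and Hspb1 (-0.69), both lower in HIP. Between AKO and WT, where 9.34% of all genes were called, 1 of 27 effectors was higher in AKO (Nptx2, 0.76, p = 0.0168), as were 1 of 21 upstream genes (Mrtfa) and 3 of 9 glucocorticoid-induced genes (Cdkn1a 0.88, Sult1a1 0.75 and Plin4 0.89), while 1 of 5 heat shock genes was lower (Hspa8, -0.21) and 0 of 18 transcription factors and co-regulators were called. Between HIP and AKO, where 12.7% of all genes were called, 2 of 18 transcription factors and co-regulators were lower in HIP (Jun -0.33 and Jund -0.22), as were 3 of 27 effectors (Nptx2 -0.65, p = 0.000184, adjusted p = 0.0762, Gadd45g -0.75 and Vgf -0.44), 1 of 21 upstream genes (Mrtfa -0.24) and 4 of 9 glucocorticoid-induced genes (Ddit4 -0.31, Cdkn1a -0.87, Sult1a1 -0.63 and Plin4 -0.54). Among heat shock genes Hsp90aa1 was higher in HIP than in AKO (0.20) and Hspb1 lower (-0.97). With all rats 0 genes of these lists were called at adjusted p. AKO rat 4KAH27 stood apart on the glucocorticoid-induced list, with a mean log2 level of 10.31 against 7.90 to 9.09 in the other rats, and was lowest for the astrocyte (11.21), endothelium (8.29) and microglia (8.12) lists. Without it 3 of 9 were still called between AKO and WT (Cdkn1a 0.63, Sult1a1 0.72 and Plin4 0.73), among 1756 of 17043 genes. In the HIP and AKO comparison 4 of 9 were then called, among 2411 of 17084 genes. Ddit4 (-0.20), Cdkn1a (-0.62) and Sult1a1 (-0.61) were lower and Zbtb16 (0.62) higher in HIP, and Plin4 (-0.37, p = 0.0709) was not called. At adjusted p, the genes of these lists called without 10RT43 and 10RT46 were Sult1a1 between AKO and WT (0.78, adjusted p = 0.0405) and Hspb1 between HIP and AKO (-1.14, adjusted p = 0.0108). At unadjusted p, Gadd45g (0.64), Vgf (0.35) and Crtc2 (0.28) were then added to the calls between AKO and WT, beside Nptx2 (0.47). Between HIP and AKO, Ptgs2 (0.44) and Mef2c (0.64) were then added as higher in HIP and Crtc2 (-0.27) as lower, and Plin4 was no longer called.

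Among 13702 genes compared with the mean of the 10 members, the 10 most like it were Rbm24 (r 0.855, and 0.721 without 10RT43 and 10RT46), Dusp6 (0.847, and 0.692), Trib1 (0.787, and 0.867), L3mbtl1 (0.775, and 0.529), Rasgrf1 (0.775, and 0.520), Gmnc (0.774, and 0.617), Otud1 (0.774, and 0.651), Cpeb1 (0.768, and 0.512), Wdr25 (0.766, and 0.648) and Pdgfb (0.766, and 0.635). The 5 most opposed were MGC116121 (-0.773, and -0.544), Fut8 (-0.770, and -0.517), Mreg (-0.737, and -0.443), Gabarapl2 (-0.735, and -0.503) and Dnttip2 (-0.732, and -0.461). Without those 2 rats the order was Trib1 (0.867), Klf2 (0.781), Sik1 (0.771) and Tob2 (0.765), and Tob2 had -0.205 with all rats. The median r of the other immediate early transcription factors and co-regulators with the members was 0.542 with all rats and 0.483 without the 2, and that of the effectors 0.517 and 0.233. For the cortical markers it was 0.469 and -0.0396, and for the cerebellar markers -0.507 and 0.0244, against 0.0221 and 0.0241 for all genes. Other marker lists without the 2 rats had medians of -0.243 (striatum), 0.266 (olfactory bulb), 0.240 (astrocytes) and 0.224 (pineal gland). Differences between lists were not tested.

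Relations of Fos and Arc with marker lists, depth and library number were computed as well, 32 in all, and 0 were called at adjusted p under 0.05. The largest with all rats was that of Arc with the level of the cortical list (r 0.626, rho 0.461, p = 0.0103, adjusted p = 0.165), which was 0.270 without the 2 farthest rats and 0.231 without 10RT43 and 10RT46. Arc had r -0.549 with the cerebellar list (rho -0.462, p = 0.0123, and -0.132 without 10RT43 and 10RT46) and 0.509 with estimated reads (rho 0.328, p = 0.0155, and 0.351 without them). Fos had 0.323 with the cortical list (rho 0.034, p = 0.249), 0.307 with estimated reads and 0.299 with library number (rho 0.403). Without 10RT43 and 10RT46 these r were -0.0865, 0.198 and 0.321. With 10RT43 and 10RT46 left out the largest were those of Arc with the oligodendrocyte list (0.385) and the striatum list (-0.360). The striatum list had r of both signs within groups, with Arc -0.639 in WT without 10RT43, 0.262 in HIP without 10RT46 and -0.340 in AKO, and with Fos -0.747, -0.0685 and 0.456. On estimated reads, 7 members had slopes with unadjusted p under 0.05 and 0 with adjusted p (0.289 to 0.291), against 2338 of 17103 genes (13.7%) and 0 adjusted. These were Fosb (0.17), Junb (0.12), Egr1 (0.15), Egr2 (0.32), Egr4 (0.14), Arc (0.22) and Npas4 (0.22). Rat 10RT43, lowest of all rats in 8 members, also had the fewest estimated reads in WT (12.92 M). Within WT the r of Arc with estimated reads was 0.645, and 0.133 without 10RT43. It was 0.044 in HIP and 0.471 in AKO. For Fos it was 0.512 in WT, 0.294 in WT without 10RT43, -0.057 in HIP and 0.185 in AKO. On library number, Npas4 (0.05, p = 0.0422) and Ier2 (0.03, p = 0.0053) passed the unadjusted threshold and 0 members the adjusted, against 1611 genes (9.42%). Depth was not equal among groups, and its part in the members' values cannot be told apart from that of the rats that were sequenced more deeply.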

How the data were processed

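The deposited values are signal on a count scale, counts that the submitters normalized with DESeq2 and deposited for 17134 genes and 30 libraries. According to the submitters' processing notes, reads from libraries made with the SMARTER mRNA-Seq kit were processed in Partek 10.0.22.0228, with Bowtie2 for filtering, STAR 2.7.8a for alignment to rn7 and DESeq2 for normalization, and the paper names Ensembl105 annotation. RNA was extracted with RNeasy. Fits were made here with limma 3.58.1 in R 4.3.3 on log2 of the normalized count plus 1, leaving out genes whose mean over the rats compared was under 1, and other steps with Python 3.11.15, numpy 2.4.6, pandas 2.3.3, scipy 1.17.1 and matplotlib 3.10.9. Each comparison of 2 groups used 20 rats, and slopes on Fos used all 30 with group in the model. Adjusted p is over all genes of a fit, or over all pairs or relations. Permutations of correlations shuffled rats within groups 100000 times. Depth was estimated from the smallest step between values, of which 80.4% to 84.1% of those below 100 were whole multiples within 0.01 read. Whole reads were not recovered for the rest, so no test for counts was used. The code was first tested on simulated data. No paired analysis was possible because the labels give no replicate numbers shared between groups.

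Genes were found by symbol, which named every member. The text names the genes of the pathway lists with unadjusted p under 0.05 between groups, and the 10 genes with the highest and the 5 with the lowest r to the mean of the members among genes with a symbol and a mean of at least 10. Genes called with Fos, genes most like the members without 10RT43 and 10RT46, and marker genes were named after their values were seen. No name is given for 2335 genes. Not found by symbol were Dusp1, Tsc22d3, Hspa1a, Hspa1b, Nrgn, Pvalb, Lct, Cldn5, Flt1, Hbb and Alas2. Camk2a is in both the upstream and the cortical list, and 1 gene first listed is not reported here. The members and lists were chosen with earlier results of these data known. Promoters were read from RefSeq GRCr8. Alternatives tried were other added constants, other scalings, array weights, estimated reads or list levels as covariates, rank correlation, all 30 rats in 1 fit and the removal of libraries singly, by 2 and by 4. The removal of 4 libraries (10RT43, 10RT46, 12RT23 and 7AKO19), the covariates other than library number, the removal of 4KAH27 for the glucocorticoid-induced genes, and the slopes on Arc, on estimated reads and on library number were added after seeing the data.

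Marker lists gave these calls at unadjusted p under 0.05 and 0 at adjusted p with all rats. Between HIP and WT, Neurod6 of 7 cortical genes was higher in HIP (0.37) and Slc32a1 of 5 inhibitory genes lower (-0.38). Between AKO and WT, Slc32a1 was lower in AKO (-0.31), and Aqp1 of 6 choroid plexus genes (1.09) and Csf1r (0.31) and C1qa (0.56) of 6 microglia genes were higher. Between HIP and AKO, the cortical gene Neurod6 (0.32), Prox1 of 5 hippocampus genes (0.51) and Tmem119 of the microglia genes (0.52) were higher in HIP. Lower in HIP were Tac1 of 9 striatum genes (-0.83), Prkcd of 4 thalamus genes (-0.26), Csf1r (-0.30), C1qa (-0.48) and Gfap of 5 astrocyte genes (-0.49). With Fos, Camk2a, Meis2 of 6 olfactory bulb genes and Dsp of the hippocampus genes had positive slopes and Calb1 of 6 cerebellum genes a negative slope. The lists of pineal (5), oligodendrocyte (5), endothelium (3) and blood (2) genes gave 0 calls in all of these. Without 10RT43 and 10RT46, the calls between HIP and WT were Neurod6 (0.28) higher and Slc32a1 (-0.30), Penk (-0.48) and Ttr (-1.25) lower in HIP. Between AKO and WT, Prkcd (0.28), Ttr (1.93), Csf1r (0.22), C1qa (0.48) and Gfap (0.44) were then higher and Cux2 (-0.29) and Tmem119 (-0.61) lower in AKO. Between HIP and AKO, Neurod6 (0.27), Rorb (0.64) and Tmem119 (0.54) were then higher in HIP, and Prkcd (-0.30), Ttr (-3.18), Folr1 (-1.17), Csf1r (-0.31), Gfap (-0.59) and Hba-a2 (-0.87) lower. With Fos it was Dsp (0.39) and Calb1 (-0.17), and 0 marker genes were called at adjusted p.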

Additional observations from a re-analysis of the deposited data

Results flagged for a closer look

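Within each group of 10 rats the lowest and highest value of each member and of 4 marker genes was compared with its nearest neighbour by the test of Dixon on the log2 scale. In all, 42 groups were examined and 11 values were found. With chance alone about 1 in 20 groups would be marked, which applies to the 30 groups of the members, with 5 values found, and not to the markers, which were picked because libraries stood out on them. These 30 groups are not independent, because the members varied together and most of the 5 values came from rat 10RT43. The members found were all in WT. Rat 10RT43 was low in Fosb (38.3, next 247), Egr1 (872, next 2849), Egr2 (2.39, next 68.4) and Npas4 (19.1, next 152.6), and rat 10RT57 was high in Ier2 (933, next 418). Among markers, Gabra6 was 17979 in 10RT43 and 1564 in HIP rat 12RT23, Tbr1 was 16.7 in 10RT43, Tph1 was 19081 and Ttr 14881 in HIP rat 10RT46, and Ttr was 3445 in AKO rat 7AKO19. All values were kept in the results with all rats, and the cause was not tested.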

How the results depend on the processing

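Between HIP and WT the main result was 0 members called at unadjusted p under 0.05, and it was 8 with estimated reads as a covariate (1 at adjusted p, Egr2 2.595, adjusted p = 0.0437, with 4104 genes, 739 adjusted) and 0 members with 277 genes when 10RT43 and 10RT46 were also left out. Between AKO and WT 0 members became 3 with array weights (Fosb, Egr4 and Npas4, with 3930 genes, 857 adjusted), 1 with estimated reads (Egr4 0.81, p = 0.0181, with 1809 genes) and 0 to 1 when each rat was left out. Between HIP and AKO 2 members became 0 with all 30 rats in 1 fit, 5 with array weights (1 at adjusted p, Egr4 -0.69, adjusted p = 0.0307, with 4289 genes, 1143 adjusted), 1 without 4 libraries (2324 genes), 0 with estimated reads (2477 genes), 1 with estimated reads and without 10RT43 and 10RT46, and 0 to 2 when each rat was left out, while list levels as covariates gave 1 (Egr4, with 1621 genes). Members called with Fos at adjusted p were 8, among 20 genes. The number was 6 among 15 genes for estimated reads and 7 among 21 genes without 4 libraries. It was 7 among 21 genes for estimated reads without 10RT43 and 10RT46, and 7 among 25 genes for list levels. When each rat was left out it was 5 to 8, with 5 among 15 genes without 10RT57. The median r of the 45 pairs, 0.788, was 0.788 with 0.1 added in place of 1, 0.783 with 5, 0.773 after quantile scaling, 0.695 as rank correlation, 0.707 without 10RT43 and 10RT46, 0.711 without 4 libraries, and 0.695 to 0.814 when each rat was left out. The number of genes called between HIP and WT was 885 with weights, 892 with list levels, 817 without 10RT43 and 10RT46 and 309 to 779 when each rat was left out (779 without 10RT46). It was 1311 to 1974 between AKO and WT, where genes at adjusted p were 10 to 39 (39 without 4KAH27), and 1657 to 3005 between HIP and AKO, where they were 17 to 70 (70 without 10RT46) and where estimated reads without 10RT43 and 10RT46 gave 3560 genes at unadjusted p. Genes called with Fos at adjusted p were 15 to 26. Median-ratio and quantile scaling gave 9 members above 0 between HIP and WT and 10 between AKO and WT, as in the main result. Of the fold changes of single members under settings other than single rats left out, 120 of 150 kept their sign and side of the threshold between HIP and WT and 129 of 150 between HIP and AKO, as did 121 of 126 slopes on Fos. Between AKO and WT 9 of 150 changed sign with no call and 4 came to pass the threshold. No called value changed sign. Settings with 4 libraries left out, estimated reads or list levels were chosen after seeing the data. Depth was estimated and not counted, so its limits on genes with low values were not measured. The cause of these shifts was not tested.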
